A study of Mus musculus with 64 samples.

Results

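The 10 genes described here encode proteins of H3K9 heterochromatin and of its recruitment by KAP1: Trim28, Zfp57, Setdb1, Suv39h2, Ehmt1, Ehmt2, Cbx1, Cbx3, Cbx5 and Uhrf2. The members are a list of gene names, and each was found as 1 row of the 23338 genes listed in every library. Reads on these genes were compared across 64 mouse libraries of the C57BL/6 strain (C57BL/6 J in the study's methods), as 12 individual eight-cell embryos (6 male, 6 female), 4 lines of ES cells (2 male, 2 female), 24 fetal livers and 24 adult livers (12 male and 12 female each). Natural matings gave the eight-cell embryos, taken 2.5 days after coitus (2.5 dpc), and all cells of an embryo went into 1 library. The ES lines had been derived from eight-cell embryos and kept in 2i, a medium with inhibitors of the MAPK kinase and of GSK3 that holds the cells in a naive pluripotent state. The fetal livers were from late gestation and the adult livers from mice of 15 to 20 weeks. The labels name no genotype other than the strain. The study's methods give 4 litters for its discovery set of 6 male and 6 female embryos, so some embryos shared a litter. Which embryos or fetuses did so is not given in the sources used here. The p-values therefore measure the spread between these samples, and the 12 embryos are not 12 independent litters.

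Methylation of lysine 9 on histone H3 (H3K9) marks silent chromatin. In one route, zinc finger proteins with a KRAB domain bind DNA, recruit KAP1 (the product of Trim28), and KAP1 in turn brings the methyltransferase SETDB1. ZFP57 is a KRAB protein that keeps DNA methylation at imprinted regions. SUV39H2 trimethylates H3K9 in pericentric heterochromatin, whereas EHMT1 (GLP) and EHMT2 (G9a) act as a pair that mono- and dimethylates H3K9 in euchromatin. The HP1 proteins, HP1β (Cbx1), HP1γ (Cbx3) and HP1α (Cbx5), read the methylated lysine. UHRF2 is the paralog of UHRF1, the protein that takes the maintenance methyltransferase DNMT1 to replicated DNA. In early embryos, ES cells and tissues, this machinery represses retrotransposons and holds imprints.

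Levels are given as CPM, the reads of a gene relative to all reads on genes (counts per 1000000) after scaling by edgeR's TMM factors. Totals on genes were 4659656 to 7725432 reads in the eight-cell embryos, 9857929 to 10386931 in the ES lines, 5145371 to 8499603 in the fetal livers and 1567583 to 4757610 in the adult livers. The level that 3 reads can show was thus 0.339 to 0.596 CPM in single embryos and 0.801 to 2.28 CPM in single adult livers, a floor that covers counting error only. The stage labels were checked against marker genes. The summed level of 6 pluripotency genes was 381 to 1113 CPM in embryos and 2163 to 2633 CPM in ES lines, and no more than 3.46 CPM in any liver. The sum of 7 hepatocyte genes was 19051 to 25773 CPM in fetal and 46165 to 65928 CPM in adult livers, against at most 103 CPM in any embryo or ES line. The adult livers had 27.0% to 52.6% of mapped reads on genes, and 8 of the 24 lay under 40%. Only the eight-cell libraries were made from amplified cDNA by a single-cell protocol, so any comparison with eight-cell embryos mixes the stage with the way the library was made, and these cannot be told apart.

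The promoters of 3 of the genes are shown because the levels of these genes behave differently across the stages: Zfp57 had the widest range of stage medians, Trim28 was the highest of the genes per exon length in embryos and ES cells, and Ehmt1 had nearly the same level everywhere. Each sequence runs from 250 bases before to 50 bases after a RefSeq start site (GRCm38), 5′ to 3′ on the strand of the gene, with each CG dinucleotide in capitals. The first is the most upstream of 3 Zfp57 starts on chromosome 17 (+ strand), the second is Trim28 on chromosome 7 (+ strand) and the third is Ehmt1 on chromosome 2 (− strand).
Zfp57, chr17:37000913-37001212: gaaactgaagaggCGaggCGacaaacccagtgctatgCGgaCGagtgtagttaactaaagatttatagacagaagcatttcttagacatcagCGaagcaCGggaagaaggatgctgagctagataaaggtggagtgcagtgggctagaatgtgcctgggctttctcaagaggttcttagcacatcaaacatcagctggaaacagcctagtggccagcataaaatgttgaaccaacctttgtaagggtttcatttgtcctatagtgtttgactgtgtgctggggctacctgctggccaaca
Trim28, chr7:13023902-13024201: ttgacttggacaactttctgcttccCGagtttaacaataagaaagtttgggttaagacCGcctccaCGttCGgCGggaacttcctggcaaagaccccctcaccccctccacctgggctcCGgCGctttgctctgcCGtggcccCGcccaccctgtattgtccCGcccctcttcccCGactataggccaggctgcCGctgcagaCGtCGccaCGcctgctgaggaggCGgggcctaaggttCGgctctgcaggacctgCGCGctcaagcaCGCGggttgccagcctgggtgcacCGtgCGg
Ehmt1, chr2:24919560-24919859: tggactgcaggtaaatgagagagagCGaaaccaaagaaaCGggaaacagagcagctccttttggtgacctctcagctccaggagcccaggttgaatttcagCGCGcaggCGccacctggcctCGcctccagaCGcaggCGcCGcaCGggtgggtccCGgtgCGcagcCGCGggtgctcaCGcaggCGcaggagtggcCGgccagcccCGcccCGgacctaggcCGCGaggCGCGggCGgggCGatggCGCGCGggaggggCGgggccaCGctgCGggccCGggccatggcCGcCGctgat
The Zfp57 window held 6 CG dinucleotides, the Trim28 window 23 and the Ehmt1 window 34. The median of all 32851 promoters in the table was 7 (quartiles 3 and 20). All 10 genes matched the table with 15 windows in all. The 3 Zfp57 windows held 4, 6 and 9 CG dinucleotides, whereas the windows of the other genes held 15 to 40, except 1 of the 2 Cbx5 windows with 8. The letters GGGCGG, known as a GC box and searched on both strands, were in 11 of the 15 windows and in 35.7% of all promoters. None of the 3 Zfp57 windows held them. These letters are a description of the windows and say nothing of which factor binds there.

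Trim28 (GRCm38, chromosome 7, 12999114 to 13031035, + strand) was abundant in both early stages and much lower in both livers. In the eight-cell embryos the lowest, median and highest levels were 666, 851 and 1145 CPM. The ES lines were at 1248 and 1105 CPM (male) and 1086 and 1082 CPM (female). Fetal livers were at 153, 172 and 191 CPM, and adult livers at 67.9, 97.5 and 115 CPM (lowest, median, highest). No liver reached the lowest embryo, and the fetal and adult livers did not overlap. From ES cells to fetal liver the level fell by 2.72 on the log2 scale (SE 0.0446, edgeR quasi-likelihood test with Benjamini-Hochberg adjustment, adjusted p = 1.60e-31). Each SE of an edgeR difference, here and in the figures, is the size of that difference over the square root of the test's F statistic. ES cells and embryos overlapped, with a log2 difference of 0.35 (SE 0.143, edgeR adjusted p = 0.0432) that was under the 2-fold a call required.

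Zfp57 (chromosome 17, 37001163 to 37010635, + strand) was high in the ES lines alone. They were at 373 and 433 CPM (male) and 335 and 342 CPM (female), with 4351 to 5948 reads each. In the eight-cell embryos its level was 0.124, 0.860 and 2.15 CPM (lowest, median, highest), on 1 to 16 reads. Fetal livers were at 3.95, 5.11 and 8.12 CPM on 29 to 69 reads, so that every fetal liver was above every embryo. In adult livers 4 of 24 libraries had no read and 17 had 1 to 3 reads, at or under what 3 reads can show. The other 3 had more, up to 9 reads in the highest at 2.40 CPM. The ES level was above the embryos by a log2 of 8.69 (SE 0.386, edgeR adjusted p = 1.66e-11), and the fetal liver fell by 6.06 from it (SE 0.0795, edgeR adjusted p = 4.07e-34). The order of the stages was therefore ES, fetal liver and then the eight-cell embryos and adult livers, which overlapped.

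**Figure D1:**
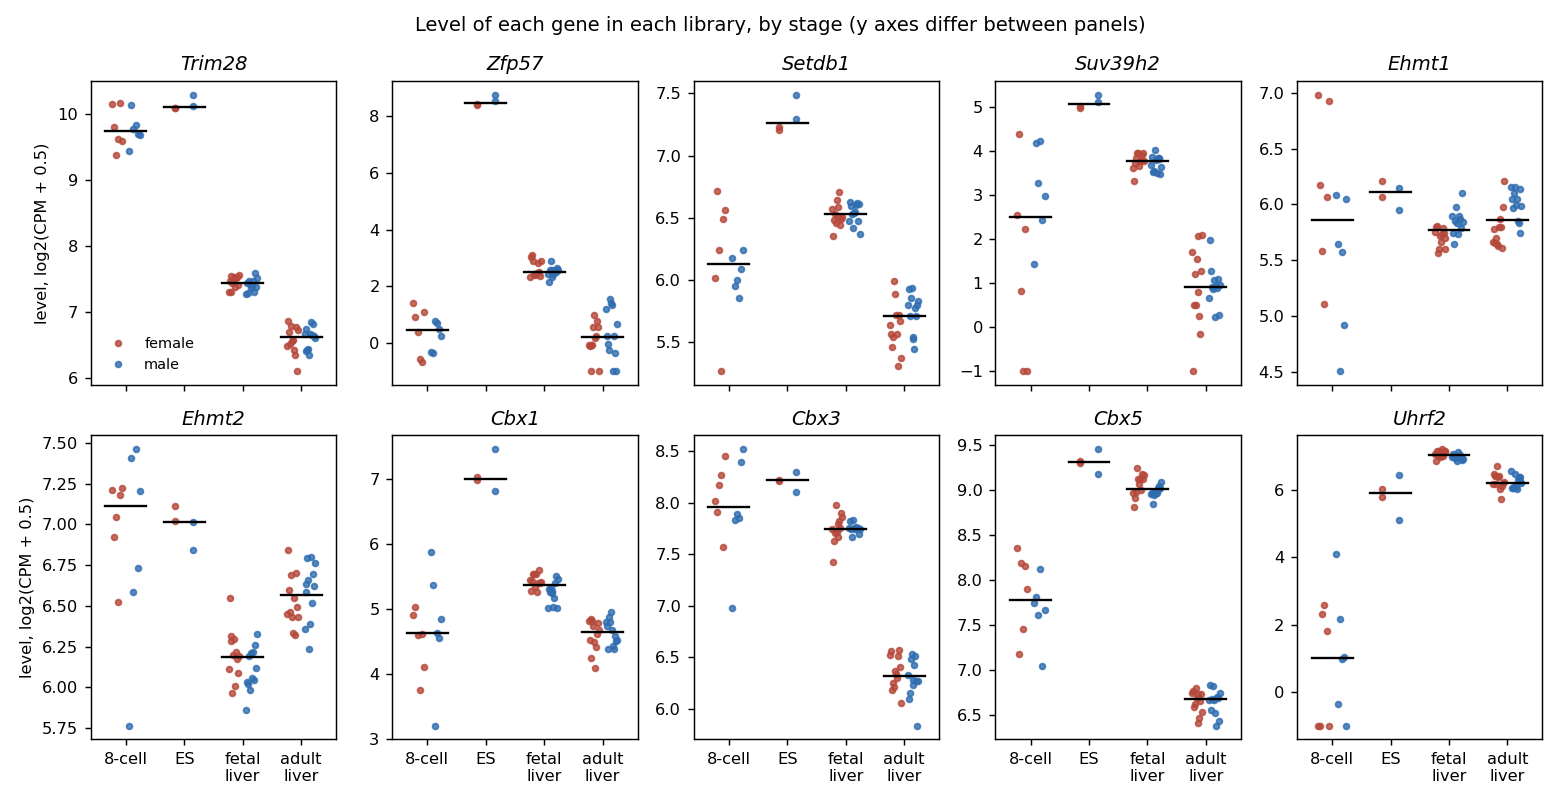
Level of each of the 10 genes in each of the 64 libraries as log2(CPM + 0.5), by stage, with female libraries in red, male in blue and the stage median as a black bar; the y axes differ between panels. Zfp57 is high in the 4 ES lines only, Trim28 separates embryos and ES lines from livers, and the eight-cell embryos scatter most for Suv39h2, Ehmt1 and Uhrf2.

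Setdb1 (chromosome 3, 95323525 to 95357202, − strand), the methyltransferase that KAP1 recruits, was highest in the ES lines, at 156 and 179 CPM (male) and 149 and 147 CPM (female). Fetal livers were at 81.2, 92.0 and 104 CPM, all below the ES lines. Embryos were at 38.0, 69.6 and 104 CPM, and adult livers at 39.0, 51.8 and 63.0 CPM (lowest, median, highest). It rose from embryos to ES cells by a log2 of 1.15 (SE 0.190, edgeR adjusted p = 6.91e-05). The embryos overlapped both livers. The fetal to adult difference was -0.84 (SE 0.0413), with no overlap between the 2 groups of livers but under the 2-fold that a call required. On the opposite strand Setdb1 shares 5.34% of its exon length with Gm37500 and 1.61% with Cers2.

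Suv39h2 (chromosome 2, 3455815 to 3475031, − strand), the pericentric methyltransferase, was at 38.4 and 34.5 CPM in the male and 31.1 and 32.2 CPM in the female ES lines. Fetal livers followed at 9.47, 13.3 and 15.8 CPM (lowest, median, highest). The embryos ranged from 2 libraries without a read to 20.5 CPM, with a median of 5.15 CPM. Adult livers were at or below 3.79 CPM on at most 6 reads, and 1 had none. It fell by 1.38 from ES cells to fetal liver (SE 0.0855, edgeR adjusted p = 4.21e-16) and by 3.07 from fetal to adult liver (SE 0.128, edgeR adjusted p = 1.00e-29). The call against the embryos (log2 of 2.25, SE 0.888, edgeR adjusted p = 0.0371) was lost without any 1 of the 4 ES lines, at adjusted p of 0.0634 to 0.0792. Suv39h2 shares 8.25% of its exon length with Dclre1c on the opposite strand, and the strand setting of the counting is not given in the sources used here.

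Ehmt1 (chromosome 2, 24789928 to 24919614, − strand) and Ehmt2 (chromosome 17, 34898469 to 34914052, + strand), which encode the partners of the GLP-G9a complex, varied least across the stages. The medians of Ehmt1 were 57.6 CPM in embryos, 68.5 CPM in ES lines, 54.1 CPM in fetal and 57.6 CPM in adult livers. The embryos ran from 22.2 to 126 CPM and so enclosed every other stage. Ehmt2 had medians of 138, 129, 72.2 and 94.3 CPM in the same order. Neither gene was called in any of the 6 comparisons between stages, but without scaling factors Ehmt2 was called lower in both livers than in ES cells, at -1.08 in fetal and -1.13 in adult liver. Ehmt2 was lower in fetal liver than in ES cells by 0.84 (SE 0.0683) with no shared range, and Ehmt1 by 0.32 (SE 0.0604). Between fetal and adult liver both differences were under the 2-fold threshold, at 0.12 (SE 0.0404) for Ehmt1 and 0.41 (SE 0.0468) for Ehmt2. Their sign rests on the scaling, since without TMM factors they were -0.34 and -0.05.

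Cbx1 (chromosome 11, 96789127 to 96808640, + strand), the HP1β gene, was at 175 and 112 CPM in the male and 129.7 and 126 CPM in the female ES lines, above every other library. Embryos were at 8.74, 24.2 and 58.0 CPM, fetal livers at 31.9, 40.8 and 48.1 CPM and adult livers at 16.6, 24.5 and 30.5 CPM (lowest, median, highest). It rose by 2.35 from embryos to ES cells (SE 0.311, edgeR adjusted p = 6.41e-06) and fell by 1.76 from ES cells to fetal liver (SE 0.0775, edgeR adjusted p = 4.91e-20). The fetal and adult livers did not overlap, at a difference of -0.72 (SE 0.0547).

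Cbx3 (chromosome 6, 51470360 to 51483704, + strand), the HP1γ gene, was not called in any comparison among the first 3 stages and was lower in adult liver. Its medians were 249 CPM in embryos, 297 CPM in ES lines, 214 CPM in fetal livers and 79.1 CPM in adult livers. It fell by 1.42 from fetal to adult liver (SE 0.0425, edgeR adjusted p = 1.04e-36), where the highest adult liver (94.5 CPM) was below the lowest fetal liver (172 CPM). The annotation names 8 pseudogenes after Cbx3, and reads without a unique alignment were not counted, so some reads of Cbx3 may be missing.

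Cbx5 (chromosome 15, 103191544 to 103239816, − strand), the HP1α gene, was at 579 and 701 CPM in the male and 640.1 and 629 CPM in the female ES lines. Fetal livers at 448, 514 and 607 CPM (lowest, median, highest) overlapped them. Embryos were at 131, 218 and 326 CPM and adult livers at 82.7, 101 and 113 CPM. It rose by 1.51 from embryos to ES cells (SE 0.185, edgeR adjusted p = 2.67e-06) and fell by 2.38 from fetal to adult liver (SE 0.0376, edgeR adjusted p = 2.81e-50). No adult liver reached the lowest embryo. The call of adult liver below embryos (-1.17, SE 0.0882) was lost with the size factors of DESeq2, where the difference was -0.72.

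Levels of different genes can be compared only per length, here as CPM per kilobase of exon in the GENCODE basic annotation. The exon lengths were 1961 bases for Cbx3 and 8988 for Cbx5, and outside the embryos the order of these genes rests on them. On this scale Cbx3 had the highest level of the 3 HP1 genes at every stage. It made up 77.7% ± 8.66 (SD, n = 12) of their summed length-scaled level in embryos, 54.3% ± 2.54 (SD, n = 4) in ES lines, 59.6% ± 1.56 (SD, n = 24) in fetal and 65.8% ± 3.42 (SD, n = 24) in adult livers. The size of the embryo share rests on the lengths too, since the embryo medians without length scaling were 249 CPM for Cbx3 and 218 CPM for Cbx5. Whether reads from the amplified cDNA of the embryos scale with exon length was not tested. Cbx5 took 29.2% to 33.4% in the fetal livers, with a median of 31.3%, and at most 21.8% in the adult livers, with a median of 17.8%. Cbx1 took 20.2% ± 4.19 (SD, n = 4) in ES cells but 9.02% ± 0.952 (SD, n = 24) in fetal liver. Over all 10 genes, Trim28 had the highest length-scaled median in embryos (262 CPM per kilobase) and in ES lines (338), and Cbx3 in fetal (109) and adult livers (40.3).

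**Figure D2:**
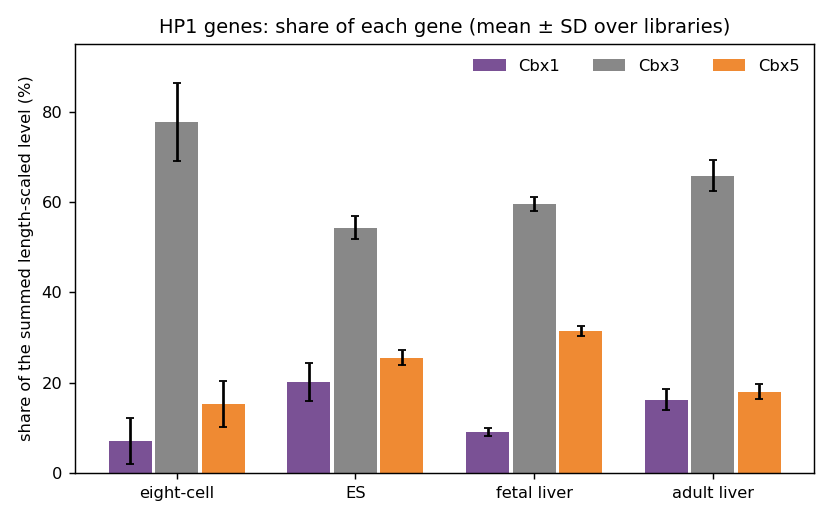
Share of Cbx1, Cbx3 and Cbx5 in their summed length-scaled level (%), by stage, as bars of the mean with the SD over the 12, 4, 24 and 24 libraries. Cbx3 is the tallest bar at each stage, no adult liver is above 21.8% for Cbx5 where every fetal liver is at 29.2% or more, and Cbx1 is 20.2% in ES lines.

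Uhrf2 (chromosome 19, 30030513 to 30093722, + strand) showed an order unlike the other genes, with fetal liver highest and the embryos lowest. Fetal livers were at 116, 130.3 and 148 CPM and adult livers at 52.9, 73.6 and 105 CPM (lowest, median, highest). The ES lines were at 86.4 and 34.2 CPM (male) and 54.6 and 64.3 CPM (female). Of the 12 embryos, 4 had no read, the median was 1.502 CPM and male embryo 1 stood apart at 16.8 CPM. It was higher in fetal liver than in ES cells by 1.12 (SE 0.114, edgeR adjusted p = 1.06e-10), a call that was lost without male ES line 2, where the difference was 0.93, and without scaling factors, where it was 0.88. Against the embryos it was higher in ES cells by 4.37 (SE 1.07, edgeR adjusted p = 0.00201) and by 5.09 without embryo 1.

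The changes between stages were then counted with 1 rule, an edgeR adjusted p-value under 0.05 and a log2 difference of at least 1 in size. From eight-cell embryos to ES cells, 6 of the 10 genes rose (Zfp57, Uhrf2, Cbx1, Suv39h2, Cbx5 and Setdb1) and 0 fell, where 33.5% of the 12372 genes tested were called higher and 19.9% lower. By DESeq2 5 were called, and the sixth, Uhrf2, had no adjusted p-value. The median log2 difference of the 10 genes was 1.33, beside 0.58 over all genes tested. Against eight-cell embryos, fetal liver was higher in Zfp57, Uhrf2 and Cbx5 and lower in Trim28, where 52.4% of all genes were called higher and 21.8% lower. Adult liver was higher than embryos in Uhrf2 and lower in Trim28, Cbx3 and Cbx5, where 48.4% were called higher and 27.0% lower. Suv39h2 and Zfp57 did not pass the count filter there, so that 8 genes were tested.

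From ES cells to fetal liver, 4 genes fell (Zfp57, Trim28, Cbx1 and Suv39h2) and Uhrf2 rose, with 21.3% of the 14260 genes tested called lower and 34.1% higher. The median of the 10 genes was -0.81, beside 0.15 over all genes. All 10 passed the adjusted p-value, and 9 of them were lower in fetal liver. Over all genes, 12763 of 14260 had an unadjusted edgeR p-value under 0.05. Without scaling factors 6 of the 10 genes were called, all lower, since Setdb1 (-1.02) and Ehmt2 (-1.08) joined the 4 and Uhrf2 (0.88) dropped out. In that setting 3847 of 14333 genes were called lower and 4403 higher, and the median over all genes was -0.105. Between ES cells and adult liver, 7 genes were lower and 0 higher, where 30.0% of all genes were called lower and 34.1% higher. The exceptions were Ehmt1 and Ehmt2, at -0.21 (SE 0.0854) and -0.43 (SE 0.0836), and Uhrf2 at 0.35 (SE 0.137). The sign of Ehmt1 turned with DESeq2 size factors, to 0.17, and that of Uhrf2 without scaling factors, to -0.34. These comparisons share libraries and are given side by side only.

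From fetal to adult liver, 4 genes fell, namely Suv39h2, Zfp57, Cbx5 and Cbx3, and 0 rose, where 24.8% of the 12605 genes tested were called lower and 17.6% higher. Trim28, Setdb1, Cbx1 and Uhrf2 were lower by less than 2-fold, at -0.83 (SE 0.0431), -0.84, -0.72 and -0.77 (SE 0.0461). None of the 4 overlapped between the stages, but how many of all genes did not overlap was not counted. Over all genes, 11317 of 12605 had an unadjusted edgeR p-value under 0.05. The median of the 10 genes was -0.84, beside -0.14 over all genes. Without scaling factors the median over all genes was -0.61, 8 of the 10 genes were called lower, and over all genes 1438 were called higher and 4664 lower, in place of 2222 and 3131. Markers of several cell types moved with this comparison. The sum of 7 proliferation genes was 3692 to 5665 CPM in fetal and 16.1 to 69.4 CPM in adult livers, with none of the 7 at 0 in all libraries of a stage. The sum of 8 erythroid genes was 1511 to 2413 CPM against 17.9 to 248 CPM, with Hba-a1, Hba-a2, Hbb-b1 and Hbb-b2 at 0 in all adult livers and Hba-a1 also at 0 in all 12 female fetal livers, and that of 4 neutrophil and megakaryocyte genes 227 to 459 CPM against 2.09 to 9.24 CPM. The zeros of Hba-a1, Hba-a2, Hbb-b1 and Hbb-b2 do not show absent expression, since reads without a unique alignment were not counted. The sums of the macrophage and endothelial genes overlapped, with fetal and adult medians of 367 and 353 CPM for macrophages and 468 and 471 CPM for endothelium. The part of these cell types in the differences was not tested. In bulk tissue, fewer cells of a type and less RNA per cell cannot be told apart.

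**Figure D3:**
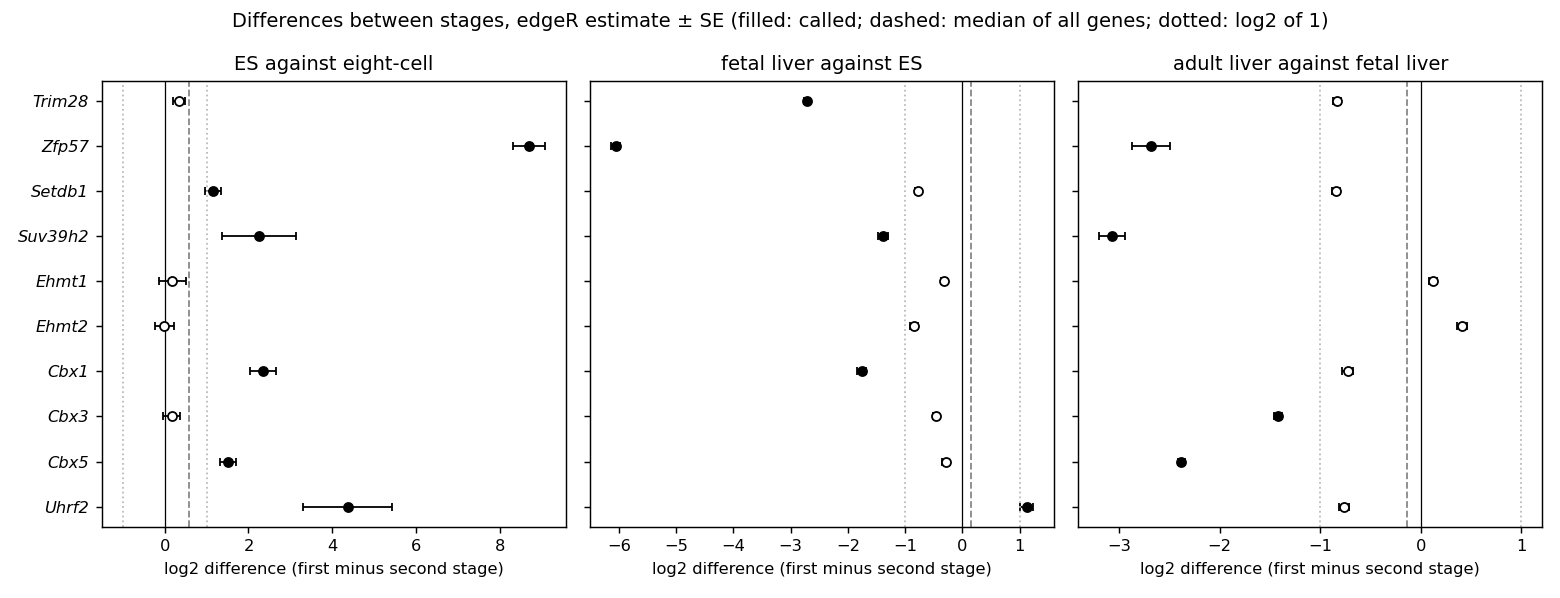
Log2 difference of each gene for ES against eight-cell, fetal liver against ES and adult against fetal liver, as the edgeR estimate with its SE; filled points passed both thresholds, the dashed line is the median of all genes tested and the dotted lines mark a log2 of 1. In the first panel 6 genes lie to the right as filled points, in the second Zfp57 is farthest left at -6.06, and in the third Suv39h2 at -3.07, Zfp57, Cbx5 and Cbx3 are filled.

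A ratio of the reads of 2 genes inside 1 library does not depend on library scaling. It was taken as log2 of the 2 counts, each with 0.5 added, for 7 pairs and 3 stage pairs (21 two-sided permutation tests, Benjamini-Hochberg adjusted). The largest shift between the livers was that of Uhrf2 to Uhrf1. The mean log2 ratio was -3.34 ± 2.57 (SD, n = 12) in embryos, -3.24 ± 0.640 (SD, n = 4) in ES lines, -0.66 ± 0.188 (SD, n = 24) in fetal and 6.00 ± 1.26 (SD, n = 24) in adult livers. It differed by 2.58 between fetal liver and ES cells (exact permutation p = 9.77e-05, the smallest possible, adjusted p = 0.000210) and by 6.66 between adult and fetal liver (permutation p = 2.00e-05, the smallest that 100000 resamples can give, adjusted p = 0.000105). Neither of these 2 shifts left any overlap between the stages. Uhrf1 itself was at 494 to 574 CPM in ES lines, 166 to 254 CPM in fetal livers and at most 3.40 CPM in adult livers, 5 of which had no read, so the adult ratio rests on the reads of Uhrf2 and the 0.5 added. Between ES cells and embryos the ratio did not pass the test, at a difference of 0.09 (exact permutation p = 0.956).

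The ratio to Suv39h1, the paralog that encodes the other pericentric H3K9 methyltransferase, was taken on reads without a length scale, so it shows a shift between stages and not which gene had the higher level. The log2 ratio was 1.62 ± 0.155 (SD, n = 4) in the ES lines. It was -3.67 ± 2.89 (SD, n = 12) in embryos and -1.98 ± 0.143 (SD, n = 24) in fetal livers, and the range of the ES lines met neither. The difference between fetal liver and ES cells was -3.59 (exact permutation p = 9.77e-05, adjusted p = 0.000210). Suv39h1 was at 9.90 to 12.7 CPM in ES lines and 37.4 to 58.7 CPM in fetal livers, opposite in order to Suv39h2. Adult and fetal livers differed by -0.40 (permutation p = 0.0694, adjusted p = 0.0809), and by -0.66 (permutation test, adjusted p = 0.00595) without the adult livers under 40% of mapped reads on genes.

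Setdb1 gained reads relative to Trim28 from embryos, at -3.65 ± 0.460 (SD, n = 12), over ES lines, at -2.84 ± 0.155 (SD, n = 4), to fetal livers, at -0.90 ± 0.141 (SD, n = 24). Adult livers were at -0.91 ± 0.267 (SD, n = 24), and the difference of -0.01 between the livers did not pass the test (permutation p = 0.897). Zfp57 to Trim28 differed by 8.56 between ES lines and embryos (exact permutation p = 0.00110, the smallest possible) and by -3.35 between fetal liver and ES cells (exact permutation p = 9.77e-05). Among the HP1 genes, Cbx5 to Cbx3 differed by 1.33 between ES lines and embryos (exact permutation p = 0.00110) and by -0.95 between adult and fetal liver (permutation p = 2.00e-05), with no overlap in either. Cbx1 to Cbx3 differed by -1.28 between fetal liver and ES cells (exact permutation p = 9.77e-05) and by 0.70 between adult and fetal liver (permutation p = 2.00e-05). Ehmt1 to Ehmt2 differed by 0.53 between fetal liver and ES cells (exact permutation p = 0.000293) and by -0.29 between adult and fetal liver (permutation p = 0.000100), with overlapping ranges both times.

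**Figure D4:**
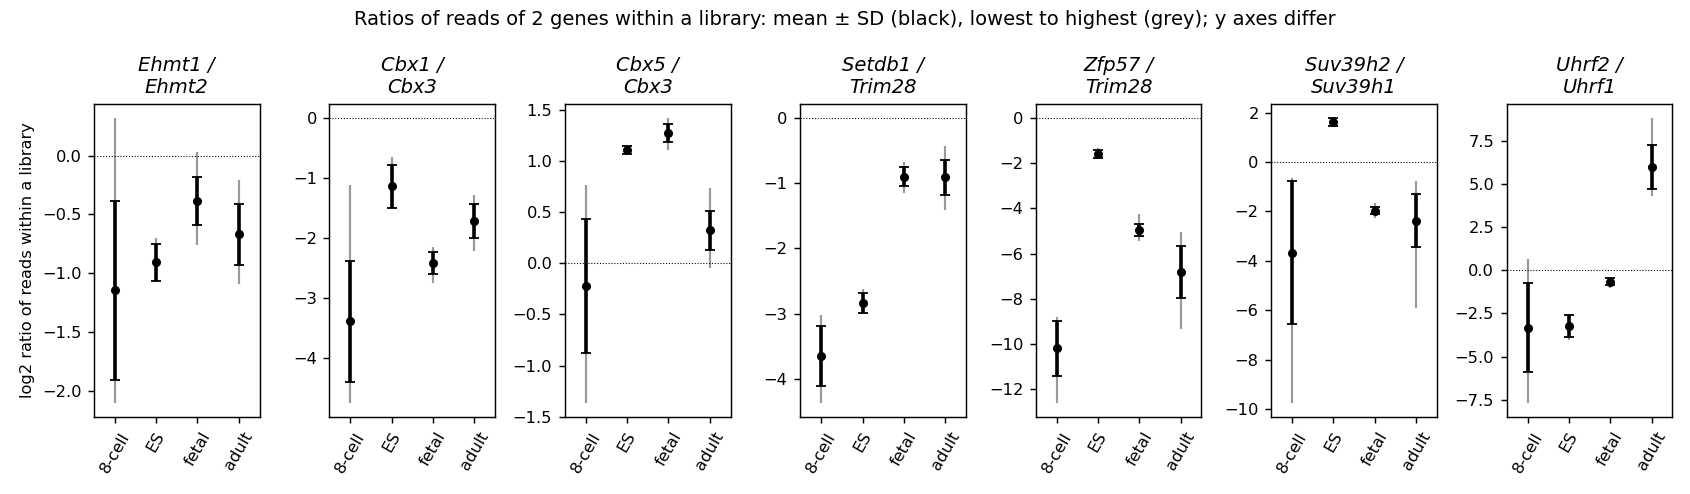
Log2 ratio of the reads of 2 genes within a library for 7 pairs, by stage, with the mean ± SD in black and the range from lowest to highest library in grey; the y axes differ between panels. Uhrf2 to Uhrf1 runs from -3.24 in ES lines to 6.00 in adult livers, and Suv39h2 to Suv39h1 is above 0 in the ES lines only.

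The other genes of these pathways were grouped in 4 lists. Of 13 KAP1 and HUSH partners, 6 fell and 0 rose from ES cells to fetal liver, where 21.3% of all genes were called lower and 34.1% higher. The list median was -0.91, beside 0.15 over all genes. The 3 largest were Trim24, a relative of KAP1 (-1.96, SE 0.0609, edgeR adjusted p = 3.73e-24), and the histone deacetylases Hdac1 (-1.71) and Hdac2 (-1.50). From fetal to adult liver 2 rose and 2 fell, no larger shares than the 17.6% and 24.8% of all genes. The 3 largest were Zfp809, a KRAB protein that silences retroviral DNA (1.71, SE 0.0633, edgeR adjusted p = 3.15e-32), the KRAB gene Zfp568 (-1.54) and Hdac1 (-1.41).

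Of 14 HP1 and heterochromatin partners, 5 fell and 0 rose from ES cells to fetal liver, and 8 fell and 0 rose from fetal to adult liver. The share of all genes called lower was 21.3% and 24.8% in these comparisons. The list medians were -0.40 and -1.88, beside 0.15 and -0.14 over all genes. The largest fall to adult liver was in Uhrf1 (-7.25, SE 0.116, edgeR adjusted p = 1.84e-49), followed by Chaf1a, a subunit of the histone chaperone CAF-1 (-4.93), and Hells, a chromatin remodeler (-4.43). Hells (-2.39), Chaf1b (-1.70) and Daxx, a chaperone of histone H3.3 (-1.58), were the 3 largest from ES cells to fetal liver. The shift of the proliferation markers between the livers, given above, stands beside these values as well.

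Of the 8 further methyltransferases and cofactors, 1 fell and 1 rose from ES cells to fetal liver, Atf7ip2 (-5.54) and Suv39h1 (2.21, SE 0.0958, edgeR adjusted p = 3.17e-20). In adult against fetal liver 7 were tested, and Suv39h1 (-2.60) and Cdyl, which encodes a chromodomain protein, (-2.23) fell. Of the 11 demethylase genes 10 were tested in each. From ES cells to fetal liver Jhdm1d (3.66) and Phf2 (2.13) rose and 3 fell, of which Kdm1a, encoding LSD1 (-2.10), was the largest. From fetal to adult liver Jhdm1d (-2.04), Kdm1a (-1.09) and Kdm3a (-1.02) fell and 0 rose. The 2 of 7 and 3 of 10 genes called lower between the livers are shares near the 24.8% of all genes.

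The study compared male with female samples at each stage, and none of the 10 genes was called by its thresholds, an adjusted p-value under 0.1 and a log2 (male/female) above 0.5 in size. By edgeR 24 of 9095 genes (0.264%) were called in embryos, 9.39% in ES cells, 4.49% in fetal and 8.97% in adult liver. The ES share moves with the lines used, from 0 genes without either female line to 1473 higher and 1718 lower without male line 2. At an unadjusted p-value under 0.05 the members were 0 in embryos, 1 in ES cells, 3 in fetal and 1 in adult liver. Over all genes these were 347 of 9095, 3070 of 12678, 5793 of 12926 and 3705 of 10344. DESeq2 called 0 members at each stage, with no adjusted p-value for 3 of them in embryos. In embryos 9 genes and in adult liver 8 passed the count filter. In the ES lines the estimates ran from -0.14 for Ehmt2 to 0.25 for Zfp57 (SE 0.0920, edgeR adjusted p = 0.178). The SE of Uhrf2 was 0.410, since the male lines were at 86.4 and 34.2 CPM. Without male line 1 its log2 was -0.80 and without male line 2 it was 0.54, both called.

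Ehmt1 was higher in male than in female livers by less than the threshold. In fetal livers the medians were 57.0 CPM in males and 52.4 CPM in females (log2 of 0.15, SE 0.0446, edgeR adjusted p = 0.0118). In adult livers they were 64.4 CPM and 52.9 CPM (log2 of 0.23, SE 0.0711, edgeR adjusted p = 0.0148). The erythroid sum moved with sex in adult liver, at 191 to 248 CPM in males and 17.9 to 54.7 CPM in females, and the hepatocyte sum had medians of 50447 and 57116 CPM. Their part in the Ehmt1 difference was not tested. Ehmt1 levels of the sexes overlapped at both stages. Male fetal livers had 36.8% to 42.6% of mapped reads on genes and female ones 41.7% to 46.8%, and with this share as a covariate the fetal difference was 0.0026 (edgeR adjusted p = 0.989) and the adult difference 0.22 (edgeR adjusted p = 0.0267). Cbx1 was lower in male fetal livers by 0.18 (SE 0.0569, edgeR adjusted p = 0.0168), which was -0.08 with the covariate. The male to female difference of none of the 10 genes differed between fetal and adult liver (edgeR interaction, adjusted p of 0.146 to 0.953, with 0 at an unadjusted p under 0.05 and 0 by DESeq2), where 33.4% of 12983 genes passed.

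**Figure D5:**
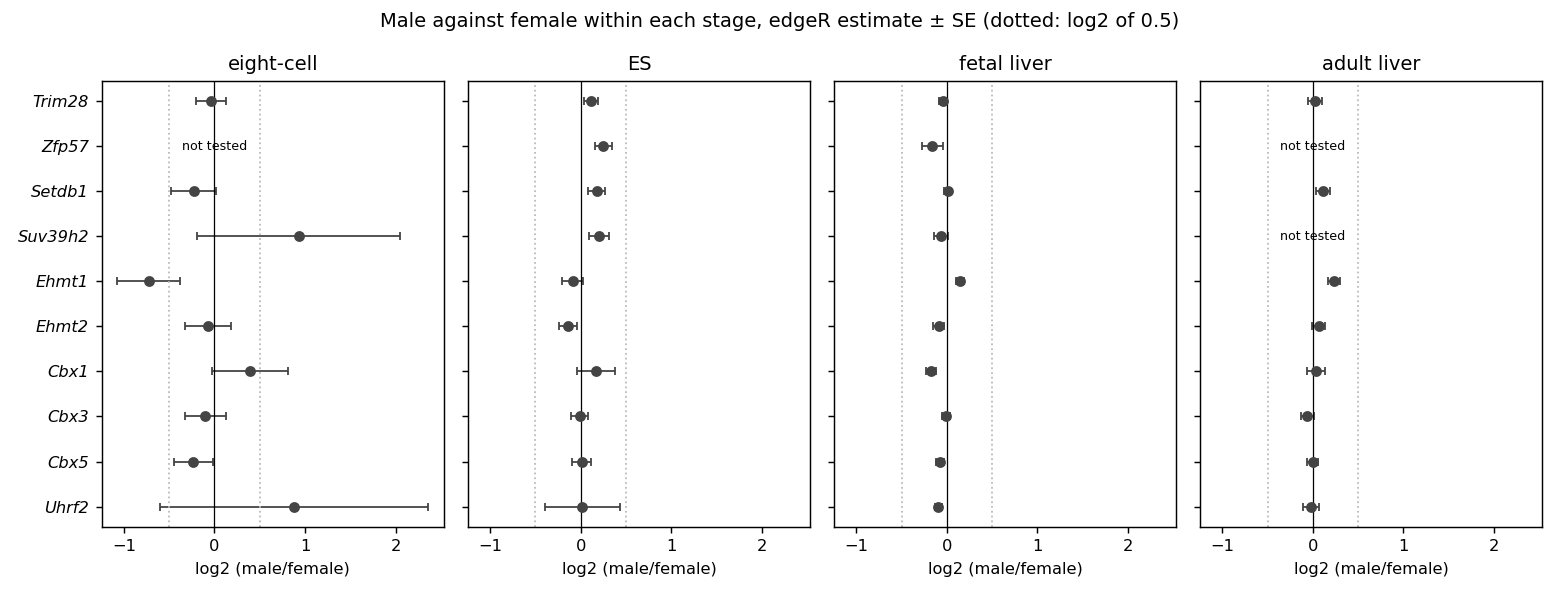
Log2 (male/female) of each gene within each stage, as the edgeR estimate with its SE; dotted lines mark a log2 of 0.5, and genes that did not pass the count filter are marked as not tested. In the livers all points lie between the dotted lines, with Ehmt1 at 0.15 in fetal and 0.23 in adult liver, and the SE is widest in embryos.

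Within stages the spread of the genes was compared with that of all genes at a mean of at least 10 CPM. Genes were not matched by level, so these ranks mix the spread of a gene with its number of reads. In eight-cell embryos the coefficient of variation of Trim28 was 18.8%, lower than in all but 5.92% of 6807 genes, whose median was 38.3%. That of Ehmt1 was 52.2% and of Cbx1 48.4% there. Cbx5 had a coefficient of variation of 8.85% in adult livers, and 2.72% of 8799 genes had a lower one. In ES lines Uhrf2 was at 36.2%, and 94.0% of 8394 genes had a lower one. In fetal livers the share of genes with a lower spread ran from 3.64% for Setdb1 to 59.4% for Suv39h2.

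The genes whose levels were most like a member over the 64 libraries were ranked by Pearson's r of log2(CPM + 0.5) among 13973 genes. These correlations are a description, since the libraries share stage, depth and protocol. Trim28 was most like Bcat1, a branched-chain aminotransferase (r = 0.988), Set (r = 0.980) and Klf8 (r = 0.979). Cbx3 was most like Chtf18 (r = 0.968), Mybl2 (r = 0.968) and the replication helicase gene Mcm2 (r = 0.965). Cbx5 was most like the condensin gene Smc2 (r = 0.973), Atad5 (r = 0.969) and Atad2 (r = 0.969). Uhrf2 was most like Tmsb4x (r = 0.973), Zfp397 (r = 0.969) and Nisch (r = 0.962), and Zfp57 like the tubulin gene Tubb2b (r = 0.945), Ogdhl (r = 0.926) and Dlgap3 (r = 0.924). Setdb1 was closest to Dnahc8 (r = 0.918), Usp7 (r = 0.909) and Sdad1 (r = 0.903). Suv39h2 was closest to Cox6b2 (r = 0.867), Nup155 (r = 0.862) and Rps6ka6 (r = 0.859). For Cbx1 the closest were U2af1 (r = 0.876), Tubb2b (r = 0.870) and Pkm2 (r = 0.867). For Ehmt2 they were Map2k1 (r = 0.871), Tomm70a (r = 0.851) and Tmem8 (r = 0.851). Ehmt1 had no gene above Bbx (r = 0.679), followed by Zdhhc12 (r = 0.670) and Klhl8 (r = 0.651). Among the members themselves r was highest for Setdb1 and Cbx5 (0.867) and lowest for Trim28 and Uhrf2 (-0.72).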

How the data were processed

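RNA-seq read counts of 64 libraries were used. Per the labels and the study's methods, the authors mapped reads to mm10 (GRCm38) with TopHat2 2.0.4, Bowtie2 2.1.0 and SAMtools 0.1.18, removed duplicates with Picard and counted reads per gene with HTSeq. The deposited counts are whole numbers and not normalized. The 5 HTSeq summary rows per library (no feature, ambiguous and similar) were left out of totals and tests. Reads outside genes (no feature) were 8.63% to 49.0% of the reads on genes, outside genes or ambiguous. Fetal livers were taken at 17.5 dpc.

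TMM factors were computed once over all libraries in edgeR 4.0.16 (R 4.3.3). Stage pairs were tested with edgeR's quasi-likelihood test with sex as a term, males against females within each stage, and the stage by sex interaction over the 48 livers, each over all genes that passed filterByExpr. Within-library ratios were tested with permutations (scipy 1.17.1). Alternatives were DESeq2 1.42.0, limma 3.58.1, other scaling, no filter, other thresholds, libraries left out, a covariate and a replicate block. Scripts were tested on simulated data. All 10 members were named in each comparison, with the 3 most alike genes for each and the 3 largest changes of each list. Members and lists were chosen with earlier results of these data known.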

Additional observations from a re-analysis of the deposited data

Results flagged for a closer look

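Each of the 10 genes was screened for an eight-cell embryo far from the others of its sex, in 20 groups of 6 embryos. Chance flags about 1 in 20 groups if levels are normally distributed. Whether that rate holds for genes with levels near 0, such as the 2 flagged here, was not tested. The other groups were too small or too large for this rule. Suv39h2 was at 20.5 CPM (131 reads) in female eight-cell embryo 8, against 0 to 5.38 CPM with a median of 1.28 CPM in the other 5 females. Uhrf2 was at 16.8 CPM (115 reads) in male eight-cell embryo 1, against 0 to 3.97 CPM with a median of 1.47 CPM in the other 5 males.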

How the results depend on the processing

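Of 92 alternative counts of called members, 85 stayed within 1.5 times the count in the report and 7 were higher. With an adjusted p under 0.1 and a log2 above 0.5, 7 members were called between fetal liver and eight-cell embryos and 8 between adult and fetal liver. Over all genes at these thresholds, 7688 of 13278 were called higher and 3712 lower in fetal liver than in embryos. In adult against fetal liver 3644 of 12605 were called higher and 4758 lower. Without scaling factors 8 members were called between the livers, where 1438 of 12647 genes were called higher and 4664 lower. Without a log2 threshold, 3 members were called between the sexes in fetal and 1 in adult liver. Over all genes, 1933 of 12926 were called higher and 3660 lower in male fetal livers. In male adult livers 1784 of 10344 were called higher and 1475 lower. Leaving out each ES line gave 0 to 1 members called between the sexes in ES cells, and both calls were of Uhrf2 (-0.80 without male line 1, 0.54 without male line 2). There Cbx1 ran from -0.18 to 0.46, and Cbx5 from -0.13 to 0.14. With adult livers of at least 40% of mapped reads on genes, the Suv39h2 to Suv39h1 difference between the livers was -0.66. Of 880 alternative log2 differences 13 turned their sign where the value in the report, the alternative or both passed the adjusted p, and 8 lost the call. With DESeq2 size factors and with DESeq2, in that order, Cbx3 in fetal liver against embryos was 0.028 and 0.080, Ehmt1 in adult liver against embryos 0.39 and 0.40, and Ehmt2 there 0.011 and 0.019. Ehmt1 in adult liver against ES cells was 0.17 with DESeq2 size factors. Without scaling factors Uhrf2 was -0.34 in adult liver against ES cells, and Ehmt1 and Ehmt2 were -0.34 and -0.047 in adult against fetal liver. The cause was not tested for any of these. Without eight-cell embryo 1, chosen after seeing the data, Uhrf2 was higher than in embryos by 5.09 in ES cells, 6.21 in fetal and 5.41 in adult liver. With the replicate block 4 members were called between the livers, as without it. The numbers did not pair the livers, since the correlation of the deviations of same-numbered fetal and adult livers was -0.08 to 0.04 over 24 numbers, and 1 of 24 fetal livers correlated best with its own number. Over all genes, 12 were higher and 23 lower in male fetal livers when the gene-assigned share of the mapped reads entered as a covariate, in place of 434 and 146. In ES cells 101 were higher and 301 lower with that covariate, in place of 418 and 773, 0 were called without either female line, and 1141 and 1567 were without male line 1. In the interaction 1638 genes were higher and 2587 lower with DESeq2 size factors, in place of 2570 and 1762, and in adult liver against ES cells 3230 and 5609 without scaling factors, in place of 4158 and 3663. Depth limits Zfp57, Suv39h2 and Uhrf1 in adult liver, on at most 9 reads, and Zfp57 in embryos, on at most 16.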
